A study of Mus musculus with 36 samples.

Results

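Hepatocyte identity transcription factors are the DNA-binding proteins that switch on and maintain the gene program of the hepatocyte, the main cell of the liver. The 9 factors described here, Hnf4a, Cebpa, Cebpb, Foxa1, Foxa2, Foxa3, Nr5a2, Onecut1 and Prox1, were taken by gene symbol. All 9 were found among the 21955 symbols of each count table, and all 9 passed the filter on low counts that left 13436 genes for testing. The libraries are total RNA from regenerating liver of C57BL/6JN mice. Young mice were 4 months old and old mice 18 months, and each age was sampled before regeneration and at 5 later points labelled 48, 72, 96, 120 and 240. This gave 12 groups of 3 libraries, 36 in all. The submitters named old as the treated group, so young served as the reference, and each later point was compared with before at the same age. The labels used here give no unit for the time points and no method by which regeneration was induced, and they name no genotype, transgene or drug in any group. The series describes its replicates as biological, but the labels do not say whether a library is 1 animal or a pool, so p-values measure the spread between these libraries.

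In the liver these factors form a network in which the members bind near each other's genes and near the genes of liver function. The C/EBP proteins Cebpa and Cebpb are leucine zipper factors, of which Cebpa is known for restraining hepatocyte division and for activating metabolic genes, and Cebpb for the acute phase response and for the response to liver injury. Hnf4a and Nr5a2 are nuclear receptors. The Foxa proteins are forkhead factors that can bind closed chromatin. Onecut1 has a cut domain and a homeodomain, and Prox1 is a homeodomain protein that is also the defining factor of lymphatic endothelium.

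The promoters of Cebpa, Foxa3 and Foxa2 are shown because these were the members that passed a test. Each is the 250 bases upstream of a RefSeq transcript start in build GRCm38.p6, written 5′ to 3′ on the strand of the gene. The Cebpa window is chr7:35119043-35119292 on the plus strand, the Foxa3 window is chr7:19023540-19023789 on the minus strand, and the Foxa2 window is chr2:148046970-148047219 on the minus strand. Capitals mark matches to motifs of the members themselves.
Cebpa promoter: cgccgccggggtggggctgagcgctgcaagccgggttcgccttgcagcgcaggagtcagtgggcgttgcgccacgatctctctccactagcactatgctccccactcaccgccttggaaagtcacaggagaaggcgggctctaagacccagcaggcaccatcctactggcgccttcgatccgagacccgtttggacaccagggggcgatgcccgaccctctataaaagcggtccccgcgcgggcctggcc
Foxa3 promoter: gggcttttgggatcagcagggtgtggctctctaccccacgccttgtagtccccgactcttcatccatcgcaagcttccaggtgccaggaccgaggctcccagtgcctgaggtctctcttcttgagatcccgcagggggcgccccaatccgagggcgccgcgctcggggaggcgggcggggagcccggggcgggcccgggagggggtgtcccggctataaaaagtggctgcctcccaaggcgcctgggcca
Foxa2 promoter: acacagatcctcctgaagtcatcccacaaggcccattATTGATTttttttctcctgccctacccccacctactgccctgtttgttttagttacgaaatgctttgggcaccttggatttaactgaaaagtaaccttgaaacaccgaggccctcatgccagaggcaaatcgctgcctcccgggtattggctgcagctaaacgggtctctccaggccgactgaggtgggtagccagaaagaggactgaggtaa
RefSeq listed 14 promoters for the 9 members, and 5 of these promoters, each of a different member, had at least 1 match. The share of all promoters that held any of the 5 motifs was not counted, so these counts only describe the windows. RefSeq also listed other Foxa2 windows, not shown, which held no match. The motifs were searched on both strands, and no match overlapped another. ATTGATT, an Onecut1 motif, was found once in the Foxa2 window, 213 bases upstream of the transcript start, and once in a window of Hnf4a; 2.61% of 32851 RefSeq promoters held these letters. TGTTTNC, a forkhead motif, was held by 17.84% of all promoters and by windows of Hnf4a, Foxa1 and Prox1. TTGCNNAA, a C/EBP motif, was held by 9.56% and by a window of Nr5a2. CAAAGTCCA for Hnf4a, held by 0.38% of promoters, and CAAGGTCA for Nr5a2, held by 1.33%, were in no member's window. The Cebpa and Foxa3 windows held none of the 5 motifs. Such a match is a run of letters and does not show that a factor binds there.

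Total counts ran from 2328233 to 6034446 per library, with a median of 4359436 in young and 4514482 in old libraries. The members were well covered, from 82 counts for Foxa1 in its lowest library to 8308 for Hnf4a in its highest. Values are given as CPM, the usual depth-scaled counts, with library totals corrected by TMM factors of 0.93 to 1.133. Hepatocyte markers summed to between 41350 and 69690 CPM in every library, a sum led by Apob (median 30600 CPM), although Ass1, one of them, was near 0 in all groups. The library of old 48 replicate 2 stood apart. Its macrophage markers summed to 157 CPM and its proliferation markers to 54.1 CPM, the lowest of the 36 libraries for both lists, while its neutrophil markers summed to 40.1 CPM, the highest. Pancreatic acinar transcripts, absent or near 0 elsewhere, summed to 197 CPM in young 96 replicate 1 and 392 CPM in old 120 replicate 3. Y-linked transcripts were present in 12 libraries, 1 in each group, and at most 0.211 CPM in the other 24, and the labels do not give the sex. In bulk tissue, fewer cells of a type and less RNA per cell cannot be told apart.

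**Figure D1:**
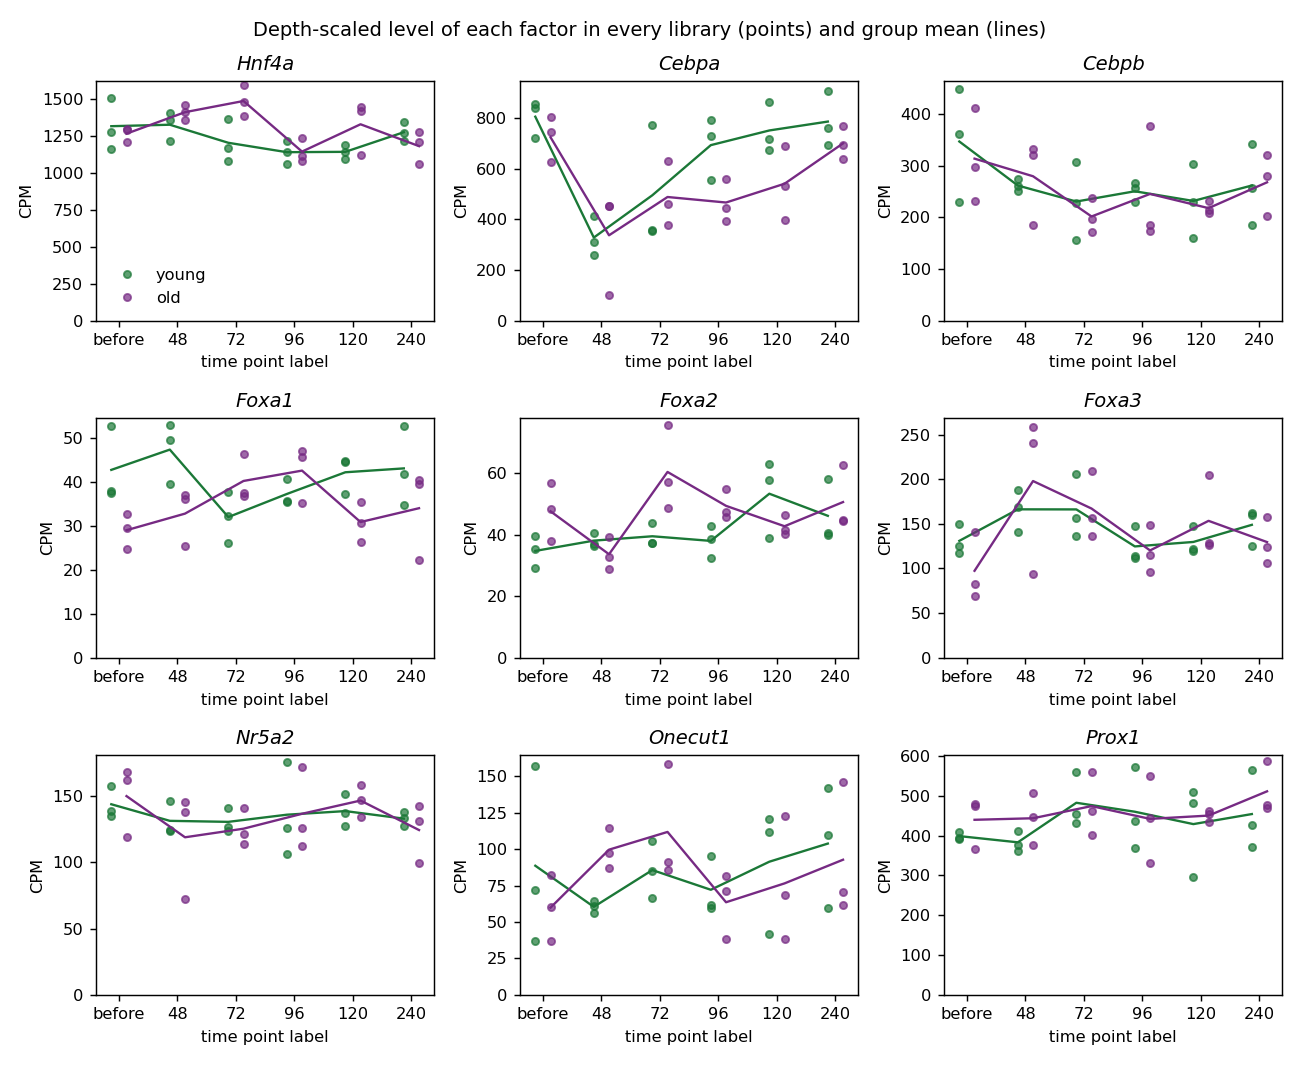
Level of each of the 9 factors in CPM (vertical axes, from 0) at the 6 time point labels, with 1 point per library and lines through the means of 3 libraries, young in green and old in purple. Cebpa falls to 328 CPM in young and 337 CPM in old at 48 and is back at 786 and 699.6 CPM at 240, while the group means of Nr5a2 stay between 119 and 150.1 CPM.

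Per kilobase of exon, the members before regeneration fell into a high, a middle and a low tier. In young libraries Cebpa stood at 305 ± 28.2 CPM per kb (SD, n = 3), Hnf4a at 273 ± 36.2 and Cebpb at 231 ± 74.0. The libraries of these 3 factors overlapped, so their order is not resolved. Foxa3 followed at 64.3 ± 8.37 CPM per kb and Prox1 at 47.5 ± 1.06, and these did not overlap in young libraries. In old libraries the order was reversed, with Prox1 at 52.4 ± 7.56 and Foxa3 at 47.8 ± 18.8 CPM per kb, and their ranges overlapped. Nr5a2 at 24.4 ± 2.07 CPM per kb and Onecut1 at 21.5 ± 15.0 were not separated in young libraries. Foxa2 at 14.7 ± 2.25 CPM per kb and Foxa1 at 12.8 ± 2.58 had the lowest means and overlapped, and Onecut1, with a lowest library of 9.01 CPM per kb, overlapped both. In old libraries these 2 forkhead factors were apart, with Foxa2 at 20.1 ± 4.02 and Foxa1 at 8.72 ± 1.19 CPM per kb, and the mean of Onecut1 lay between theirs at 14.6 ± 5.51, with libraries that overlapped both. Exon lengths came from the GENCODE annotation of GRCm38, which may differ from the authors' annotation.

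**Figure D2:**
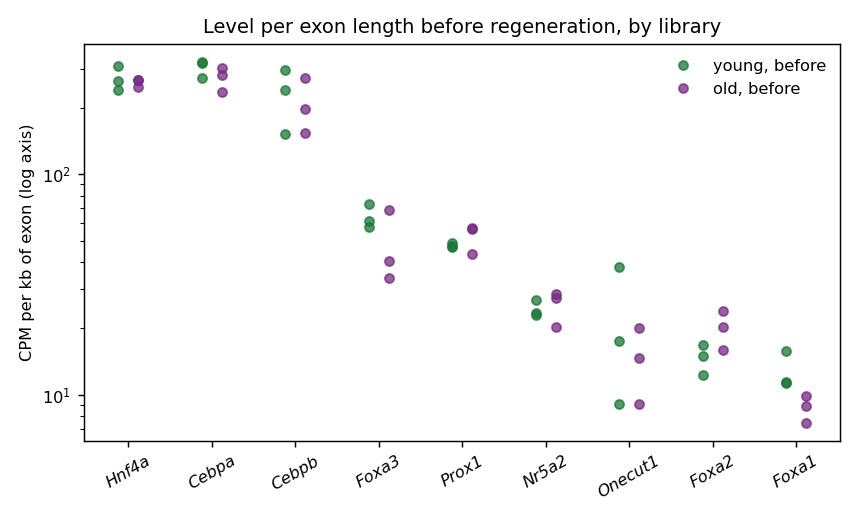
Level per kilobase of exon (CPM per kb, log axis) of each factor in the 3 young and 3 old libraries before regeneration, ordered by the median over all 36 libraries. Hnf4a, Cebpa and Cebpb lie between 152 and 324 CPM per kb, above the other 6 factors in every library.

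Members passed the test only at 48 and over the later points together. Among single time points, the share of all genes called was also highest at 48 in both ages. The counts of members were not tested against these shares. Calls here are adjusted p-values under 0.05 in edgeR's quasi-likelihood test. At young 48, 1 of 9 members was called, Cebpa, which was lower, where 21.9% of 13436 genes were called, 12.2% higher and 9.79% lower. At old 48, 2 of 9 were called, Foxa3 higher and Cebpa lower, where 24.1% of genes were called, 12.1% higher and 12% lower. Over the 5 later points together, 1 member was called in young (Cebpa), against 21.4% of genes, and 1 in old (Foxa2), against 20.5%. DESeq2 called 1 and 3 members in these tests. The median absolute log2 change of the 9 members at 48 was 0.15 in young and 0.34 in old, beside 0.38 and 0.41 over all genes.

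The remaining time comparisons called 0 of 9 members in edgeR. At young 72 the background was 17.4% of genes (9.21% higher, 8.21% lower), 1 member had an unadjusted p under 0.05, Foxa1, and DESeq2 called 0. At old 72 the background was 12.4% (6.54% higher, 5.81% lower), 3 members had an unadjusted p under 0.05, Cebpb, Foxa1 and Foxa3, and DESeq2 called 1, Foxa3. Background shares were lower from 96 on. They were 1.4% at young 96, with 0 members under an unadjusted 0.05, 0.581% at young 120 and 0.246% at young 240, with 1 member under it at each, Foxa2. In old mice they were 6.82% at 96, with 1 member under an unadjusted 0.05, Foxa1, 3.87% at 120, with 1, Foxa3, and 0.156% at 240, with 0. DESeq2 called 0 members in each of these later comparisons. Leaving out 1 library brought a single call at young 72, old 72 or old 120, given with the genes concerned.

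**Figure D3:**
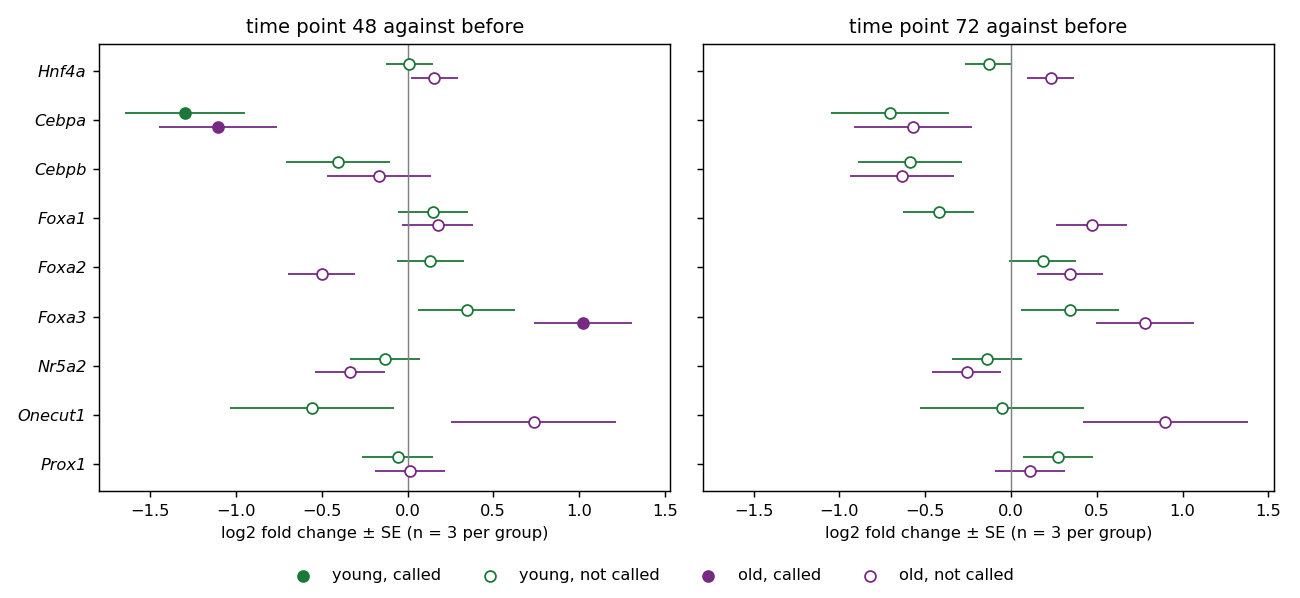
Log2 fold change against before (horizontal axis, ± SE, n = 3 libraries per group) for the 9 factors at 48 and 72, young in green and old in purple, with filled points for genes called by edgeR. Only Cebpa in both ages and Foxa3 in old are filled, all at 48, and Cebpa lies at -1.30 in young and -1.10 in old.

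Cebpa (chr7:35119293-35121928, plus strand, GRCm38, protein coding) fell at 48 in both ages and was back near its starting level at 240. In young mice the libraries before stood at 854, 719.5 and 841 CPM, and those at 48 at 257, 414 and 312 CPM. All 3 libraries at 48 lay below all 3 before. The mean fell from 805 ± 74.2 to 328 ± 79.7 CPM (SD, n = 3), a log2 change of -1.30 ± 0.35 (SE; 95% interval -2.01 to -0.59; adjusted p = 0.00742). Within the library pair with Y-linked transcripts the log2 difference was -1.45, and between the means of the others -1.25. The call was lost without young 48 replicate 1 (log2 change -1.14, adjusted p = 0.0517) and over the libraries without Y-linked transcripts alone (-1.20, adjusted p = 0.0868), and held in the other 45 of 47 alternatives.

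In old mice the Cebpa libraries before stood at 804, 743 and 625 CPM, and those at 48 at 453, 103 and 454 CPM. The groups again did not overlap, and the lowest value came from replicate 2, the library that stood apart. The mean went from 724 ± 91.0 to 337 ± 203 CPM, a log2 change of -1.10 ± 0.35 (adjusted p = 0.0210). Without old 48 replicate 2 the change was -0.65 and was no longer called (adjusted p = 0.108). The call was also lost without old before replicate 1 (-0.99, adjusted p = 0.0576), without old before replicate 2 (-1.08, adjusted p = 0.0546) and in a fit of the 2 groups alone (-1.09, adjusted p = 0.251). Within the pair with Y-linked transcripts the difference was -0.83, and between the others -1.65. Of the proliferation markers, 8 of 8 were called higher at young 48 and 3 of 8 at old 48, and so were 8 of 8 at young 72 and 7 of 8 at old 72 and old 96, where Cebpa was not called. They summed to 68.9 to 97.0 CPM before and 1989 to 3699 CPM at 48 in young, and to 75.1 to 140 CPM before and 54.1 to 769 CPM at 48 in old. The lowest of these sums, 54.1 CPM, came from the library with the lowest Cebpa. Of the other lists at old 48, 5 of 10 hepatocyte markers were called lower and 1 higher (median log2 change -0.45), 4 of 8 macrophage markers lower and 3 of 7 sinusoidal endothelial markers lower. At young 48, 1 of 10 hepatocyte markers and 3 of 7 sinusoidal endothelial markers were lower. Of all genes, 12.2% were called higher and 9.79% lower at young 48, and 12.1% and 12% at old 48. The shares called higher were 9.21% at young 72, 6.54% at old 72 and 3.76% at old 96. The part of these lists in the result was not tested.

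From 72 on, no comparison of Cebpa with before was called in either age. At young 72 the libraries stood at 353, 358 and 772 CPM, so replicate 3 was at the level before while the other 2 were not. Replicate 3 held Y-linked transcripts. Within the pair with Y-linked transcripts the log2 difference was -0.145, and between the others -1.127. The log2 change in the fit was -0.70 ± 0.34 (adjusted p = 0.161). It was called without young 72 replicate 3 (-1.16, adjusted p = 0.0277) and without old 48 replicate 2 (-0.69, adjusted p = 0.0454). At old 72 the libraries stood at 459.5, 628 and 375 CPM, a change of -0.57 ± 0.34 (adjusted p = 0.292). There the order was the other way, with -1.096 within the pair with Y-linked transcripts and -0.341 between the others. At 96 the young libraries stood at 556, 792 and 729.5 CPM and the old at 392, 445 and 560.3 CPM. The old libraries at 96 all lay below those before, but the log2 change of -0.63 ± 0.34 was not called (adjusted p = 0.281). At 120 the young libraries stood at 862, 717 and 672 CPM and the old at 533, 397 and 691 CPM. By 240 the values were 906, 691 and 759.8 CPM in young and 637, 769 and 692 CPM in old, and the log2 change from before was -0.04 ± 0.34 and -0.05 ± 0.34. Over the 5 later points together Cebpa passed in young (adjusted p = 0.0378), but the p ranged from 0.00144 to 0.178 over the alternatives and the call was lost in 12 of 47. In old it was not called (adjusted p = 0.120).

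The 9 omissions that ended the young Cebpa call over time were young before replicates 1 (adjusted p = 0.061) and 3 (0.0585), young 48 replicates 1 (0.172) and 3 (0.14), and young 72 replicates 1 (0.063) and 2 (0.0595). The others were young 120 replicate 1 (adjusted p = 0.0501) and young 240 replicates 1 (0.0561) and 3 (0.0514). The test of whether the course differed between the ages gave an adjusted p of 0.951, and at 48 old minus young was 0.04 ± 0.34 (95% interval -0.66 to 0.74).

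Cebpb (chr2:167688915-167690418, plus strand, a single exon) was not called at any point. The libraries before stood at 363, 450.1 and 229 CPM in young and 297, 233 and 413 CPM in old. At 48 they stood at 261, 250.4 and 275 CPM in young and 321, 333 and 186 CPM in old. Both ages overlapped their libraries before, and the spread before was wide, at 347 ± 111 CPM in young. At old 120 the 3 libraries, at 231, 209 and 214 CPM, all lay just below those before (log2 change -0.53 ± 0.30, adjusted p = 0.355). The lowest group mean of each age came at 72, at 202 ± 32.9 CPM in old and 231 ± 75.5 CPM in young. The log2 change there was -0.59 ± 0.30 in young (adjusted p = 0.184) and -0.64 ± 0.30 in old (adjusted p = 0.171). Of the Cebpb exon, 312 bases (20.7%) lie opposite Tmem189, whose median was 11.1 CPM, and how the authors' counting used strand is not given in the sources used here.

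The ratio of Cebpa to Cebpb counts needs no scaling between libraries, and it was lowest at 48 in both ages. In young mice its log2 was 1.24, 0.68 and 1.88 before and -0.02, 0.73 and 0.18 at 48, so the groups overlapped between 0.68 and 0.73. In old mice it was 1.44, 1.67 and 0.60 before and 0.50, -1.70 and 1.29 at 48, with replicate 2 far below the other 2. The young means were 1.26 ± 0.60 before and 0.30 ± 0.39 at 48, and 1.62 ± 0.41 at 240. The old means were 1.24 ± 0.56, 0.03 ± 1.55 and 1.40 ± 0.45 at the same points. These ratios share the counts of the tests above and were given no test.

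**Figure D4:**
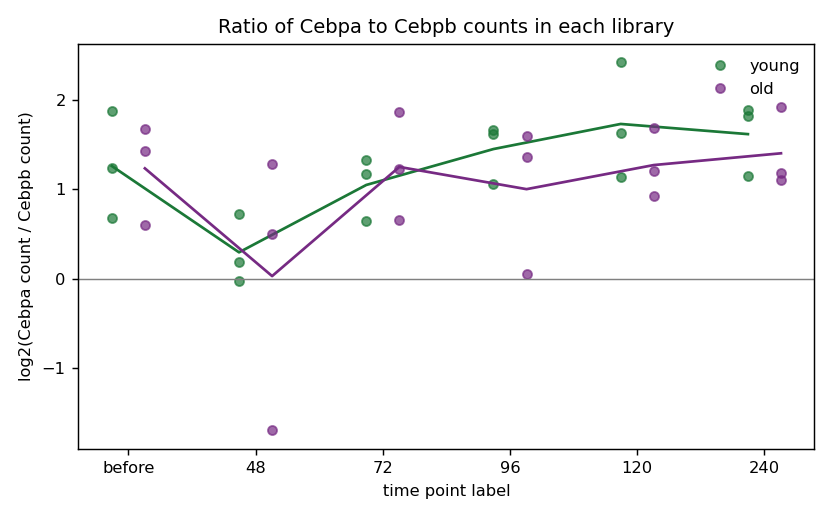
Log2 ratio of the Cebpa count to the Cebpb count in each library (points) and the mean of 3 libraries (lines), by time point label, young in green and old in purple. The young mean drops from 1.26 before to 0.30 at 48, and 1 old library at 48 lies at -1.70, the lowest of the 36.

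Hnf4a (chr2:163506808-163572910, plus strand), the nuclear receptor that drives a large share of hepatocyte genes, was the member with the smallest spread between replicates, with a coefficient of biological variation of 13.5%. Its young libraries stood at 1277, 1507 and 1164 CPM before, 1358, 1407 and 1213 CPM at 48 and 1165, 1082 and 1364 CPM at 72. Its old libraries stood at 1210, 1291 and 1295 CPM before, 1413, 1460 and 1360 CPM at 48 and 1384, 1595 and 1481 CPM at 72. In old mice the 3 libraries at 48 and the 3 at 72 all lay above the 3 before, whereas the young groups overlapped. The log2 change was 0.16 ± 0.14 at old 48 and 0.23 ± 0.14 at old 72 (adjusted p = 0.279), and neither was called. The 95% interval at young 48 was -0.27 to 0.29, which leaves out a change as large as that of Cebpa. Group means of Hnf4a ran from 1140 to 1487 CPM, a 1.3-fold range, against 2.46-fold for Cebpa.

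Foxa3 (chr7:19013284-19023538, minus strand), the most abundant of the 3 forkhead factors here, rose at 48 in old mice. The old libraries stood at 141, 82.2 and 68.9 CPM before and 241, 94.2 and 259 CPM at 48. Replicate 2 at 48 lay within the range before, so the groups overlapped, while replicates 1 and 3 lay above it. The mean went from 97.3 ± 38.3 to 198 ± 90.3 CPM, a log2 change of 1.02 ± 0.29 (95% interval 0.44 to 1.61; adjusted p = 0.0103). Within the pair with Y-linked transcripts the difference was 0.77, and between the others 1.04. The call was lost without old before replicate 2 (0.92, adjusted p = 0.0556) or 3 (0.85, adjusted p = 0.0687), and without old 48 replicate 1 (0.86, adjusted p = 0.0518) or 3 (0.79, adjusted p = 0.0553). It was also lost in a fit of the 2 groups alone (1.04, adjusted p = 0.205).

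Later in old mice Foxa3 stood at 156, 209 and 136 CPM at 72, a log2 change of 0.78 ± 0.29 that was not called (adjusted p = 0.0695). DESeq2 called it (0.79, adjusted p = 0.0497), as did the fits without old before replicate 1 (1.18, adjusted p = 0.0114) and without old 48 replicate 2 (0.81, adjusted p = 0.0177), the fit with total-count scaling (0.89, adjusted p = 0.0318) and the fit over the libraries without Y-linked transcripts (1.29, adjusted p = 0.036). Within the pair with Y-linked transcripts the difference at 72 was -0.05, against 1.25 between the others, and at 120 it was -0.15 against 1.098. At old 120 it stood at 128, 205 and 127 CPM, not called (log2 change 0.66 ± 0.29, adjusted p = 0.198) except without old before replicate 1 (1.04, adjusted p = 0.0412). Young Foxa3 libraries stood at 126, 150.0 and 117 CPM before and 141, 169 and 188 CPM at 48, which overlapped. The young log2 change was 0.34 ± 0.28 (adjusted p = 0.420). The ages were not shown to differ in the course of Foxa3, since the interaction had an adjusted p of 0.862.

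Foxa2 (chr2:148042877-148046969, minus strand), a forkhead factor of liver and other endodermal tissue, passed the test over time in old mice (adjusted p = 0.0353). Its old libraries stood at 37.8, 48.3 and 56.8 CPM before, 32.9, 28.8 and 39.3 CPM at 48 and 48.6, 75.6 and 57.1 CPM at 72. All 3 libraries at 48 lay below all 3 at 72, and both groups overlapped the libraries before. Against before, the log2 change was -0.50 ± 0.19 at 48 (adjusted p = 0.0591) and 0.34 ± 0.19 at 72 (adjusted p = 0.253), neither of them called. Within the pair with Y-linked transcripts these differences were -0.20 and 0.58, and between the others -0.62 and 0.21. The call over time was lost without old before replicate 2 (adjusted p = 0.0509), old 48 replicate 1 (0.0923) or 2 (0.125), or old 72 replicate 2 (0.111) or 3 (0.0527). It was lost as well over the libraries without Y-linked transcripts (adjusted p = 0.179) and in a fit of the old groups alone (0.103). The change at 48 was called without old before replicate 1 (-0.61, adjusted p = 0.0327), old 48 replicate 3 (-0.63, adjusted p = 0.0342) or young 120 replicate 2 (-0.50, adjusted p = 0.047). Later old means were 49.4 ± 4.89 CPM at 96, 42.8 ± 3.24 at 120 and 50.6 ± 10.4 at 240.

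In young mice Foxa2 libraries stood at 35.4, 29.1 and 39.7 CPM before and 37.1, 36.5 and 40.7 CPM at 48, which overlapped. Its highest young mean was at 120, at 53.3 ± 12.6 CPM, a log2 change of 0.62 ± 0.19 (adjusted p = 0.164). At 240 the 3 libraries, at 40.6, 39.8 and 58.1 CPM, all lay above those before (log2 change 0.41 ± 0.20, adjusted p = 0.968). The young course of Foxa2 was not called (adjusted p = 0.116) except without young 120 replicate 2 (adjusted p = 0.0351).

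Foxa1 (chr12:57540628-57546916, minus strand), the third forkhead factor, had the lowest level per kilobase and no call against before. Young libraries stood at 52.6, 37.6 and 38.0 CPM before, 49.5, 39.6 and 53.0 CPM at 48 and 26, 37.7 and 32.3 CPM at 72. Old libraries stood at 29.6, 24.8 and 32.6 CPM before, 36.0, 25.3 and 37.0 CPM at 48 and 37.6, 46.3 and 36.8 CPM at 72. The old libraries at 72 all lay above those before, and the young groups overlapped. The log2 change at 72 was -0.42 ± 0.21 in young (adjusted p = 0.158) and 0.47 ± 0.21 in old (adjusted p = 0.133). At old 96 the libraries stood at 35.2, 46.9 and 45.6 CPM, again above before, with a log2 change of 0.56 ± 0.21 (adjusted p = 0.0984). The signs at 72 were opposite, but the interaction of Foxa1 was not called (adjusted p = 0.176).

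Nr5a2 (chr1:136842571-136960448, minus strand), a nuclear receptor of bile acid and cholesterol metabolism, had group means within a 1.26-fold range. Young libraries stood at 135, 139 and 158 CPM before and 124, 124 and 147 CPM at 48, and old libraries at 119.5, 169 and 162 CPM before and 146, 72.7 and 138 CPM at 48. Both ages overlapped. The lowest of all 36 values was again that of old 48 replicate 2. The 95% intervals of the log2 change at 48 were -0.55 to 0.28 in young and -0.75 to 0.08 in old.

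Onecut1 (chr9:74861921-74891781, plus strand), a factor of both hepatocytes and bile duct cells, varied most between replicates, with a coefficient of biological variation of 39.8%, above 90.1% of the genes tested. Young libraries before stood at 157, 37.1 and 71.9 CPM, a more than 4-fold range within 1 group. The library at 157 CPM held Y-linked transcripts. Within the pair with Y-linked transcripts the log2 difference at young 48 was -1.465, and between the others 0.269. Between the ages before regeneration (old minus young) it was -2.051 and 0.438. Old libraries stood at 37.1, 82.4 and 60.0 CPM before, 87.1, 115 and 97.4 CPM at 48 and 86.0, 158 and 91.1 CPM at 72. The old libraries at 48 and 72 all lay above those before, with log2 changes of 0.73 ± 0.48 and 0.90 ± 0.48, but neither was called (adjusted p = 0.270 and 0.228). The young interval at 48, -1.54 to 0.43, was too wide to place the change on either side of 0. Of the Onecut1 exons, 52.8% overlap the non-coding gene Gm20649 on the same strand. Gm20649 was not among the symbols counted, and any share of its reads in the Onecut1 counts was not tested. Cholangiocyte markers also varied, from 38.0 to 304 CPM in sum over the libraries. That sum was led by Spp1, at 16.5 to 261 CPM, while Krt7, Epcam, Cftr, Cldn4 and Tspan8 had medians of at most 0.824 CPM. The sum was 52.4 CPM in old 72 replicate 2 and 57.4 CPM in young before replicate 1, where Onecut1 was highest. It was highest in young 72 replicate 2, where Onecut1 stood at 66.35 CPM. The part of these markers in the spread of Onecut1 was not tested.

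Prox1 (chr1:190118035-190170714, minus strand) was not called at any point. Young libraries stood at 393, 409 and 395 CPM before, 363, 411 and 377 CPM at 48 and 455, 431 and 561 CPM at 72, where all 3 lay above those before. The log2 change at young 72 was 0.28 ± 0.20 (adjusted p = 0.380). Old libraries stood at 367, 474 and 479 CPM before and 508, 376 and 447 CPM at 48, which overlapped. Genes listed as markers of lymphatic endothelium, which also expresses Prox1, summed to between 119 and 234 CPM in all libraries. That sum was led by Reln, Flt4 and Lyve1, with medians of 69, 57.7 and 29.2 CPM. Pdpn, Mmrn1 and Thy1 were near 0, with medians of 0.594, 1.8 and 1.66 CPM, and Ccl21a was not among the symbols. The sum thus rests mostly on Reln, Flt4 and Lyve1, and the part of lymphatic cells in the Prox1 level was not tested.

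Between the ages, edgeR called 0 of 9 members at every time point. Before regeneration the background was 0.0595% of genes, and 2 members had an unadjusted p under 0.05, Foxa1 and Foxa2. At 48 the background was 11.2%, with 1 such member, Foxa1. At 72 it was 0.0%, with 2, Hnf4a and Foxa2, at 96 it was 0.171%, with 0, at 120 it was 0.0%, with 1, Foxa1, and at 240 it was 0.0149%, with 0. Averaged over the 6 time points, 5.98% of genes were called and 0 members, with 2 under an unadjusted 0.05, Foxa1 and Foxa2. The age by time interaction called 2.76% of genes and 0 members, with the same 2 under an unadjusted 0.05. DESeq2 called 0 members in each of these comparisons.

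Foxa1 was the member whose ages were most often apart, though it was never called. The share of all genes whose groups had no overlap was not counted. Such separations, here and above, therefore only describe these libraries. All old libraries lay below all young ones before, at 48 and at 120, with log2 differences (old minus young) of -0.56 ± 0.21 (adjusted p = 0.513), -0.53 ± 0.20 (adjusted p = 0.0914) and -0.45 ± 0.21 (adjusted p = 0.459). At 72 and 96 its old mean was the higher one, with differences of 0.33 ± 0.21 and 0.20 ± 0.21. The average over time points was -0.23 ± 0.08 (adjusted p = 0.111). For Foxa2 the difference was 0.46 ± 0.20 before (adjusted p = 0.636) and 0.61 ± 0.19 at 72 (adjusted p = 0.518), but -0.18 ± 0.20 at 48 and -0.31 ± 0.19 at 120, with an average of 0.18 ± 0.08 (adjusted p = 0.188). At 72 all 3 old libraries of Hnf4a and of Foxa2 lay above all 3 young ones, with a log2 difference of 0.30 ± 0.14 for Hnf4a (adjusted p = 0.967). Those of Foxa2 did so at 96 as well, with 0.38 ± 0.20 (adjusted p = 0.418). Onecut1 did so at 48, with 0.72 ± 0.48 (adjusted p = 0.371). For Hnf4a the 95% interval of the average difference was -0.04 to 0.19, for Nr5a2 -0.19 to 0.14 and for Cebpa -0.51 to 0.06.

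Target genes of hepatocyte function, such as albumin, apolipoproteins and enzymes of sugar, amino acid and bile acid metabolism, were called lower or not at all at 48 and 72. Of 23 targets tested, 0 were called higher and 8 lower at young 48, with a median log2 change of -0.76, and 0 higher and 10 lower at old 48, with a median of -0.67. Over all genes these medians were -0.01 and 0.01, and 9.79% and 12% of genes were called lower. At 72, 7 targets were lower in young and 6 in old, with medians of -0.66 and -0.67, and at 240, 0 and 1. The shares of all genes called lower at 72 were 8.21% in young and 5.81% in old. The target counts were not tested against these shares. The lower counts moved with the libraries fitted. At young 48 they were 12 in a fit of those groups alone, 5 over the libraries without Y-linked transcripts, 5 without young before replicate 1, 4 without young 48 replicate 1, 5 without replicate 2 and 4 without replicate 3. At old 48 they were 6 without old before replicate 3 and 5 without old 48 replicate 2, and 2 in a fit of those groups alone. At old 72 they were 2 without old before replicate 3 or old 72 replicate 2, and 3 without old 72 replicate 3. No interaction between age and time was called for a target (0 of 23).

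Gys2, the liver glycogen synthase, showed the largest fall of the targets at young 48, at 32.6 ± 4.96 CPM against 258 ± 25.0 CPM (48 against before), a log2 change of -2.98 ± 0.33 (adjusted p = 9.86e-07). In old mice it was 42.7 ± 12.9 CPM against 119 ± 15.8 CPM, a change of -1.48 ± 0.31 (adjusted p = 0.00121), and averaged over time points it was lower in old (log2 difference -0.63 ± 0.13, adjusted p = 0.00243). Abcg8, a sterol exporter into bile, fell at 48, with a log2 change of -1.88 ± 0.35 in young and -1.65 ± 0.35 in old (adjusted p = 0.000248 and 0.00135). The calls of Gys2 and Abcg8 held in all 47 alternatives at 48 in both ages. G6pc, the enzyme that releases glucose, fell at old 72, at 204 ± 83 CPM against 1425 ± 464 CPM (log2 change -2.81 ± 0.53, adjusted p = 0.00115). At young 48 it fell with a log2 change of -1.65 ± 0.51 (adjusted p = 0.0203), a call lost without young before replicate 1 (-1.54, adjusted p = 0.0604) or young 48 replicate 1 (-1.51, adjusted p = 0.0883) or 2 (-1.53, adjusted p = 0.0683).

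Other targets were less even. Otc, a urea cycle enzyme, fell at old 48, at 43.2 ± 52.3 CPM against 169 ± 10.02 CPM (log2 change -1.96 ± 0.49, adjusted p = 0.00551), and this call was lost in a fit of the 2 groups alone (adjusted p = 0.209) and without the libraries with Y-linked transcripts (-1.45, adjusted p = 0.104). Igfbp1, a secreted binding protein of insulin-like growth factors, was higher in old than in young at 48, at 1228 ± 575 CPM against 219 ± 106 CPM (log2 difference 2.49 ± 0.75, adjusted p = 0.0303). That call was lost without old 48 replicate 1 (2.31, adjusted p = 0.063) or 2 (2.24, adjusted p = 0.123), and without young 48 replicate 1 (2.34, adjusted p = 0.126) or 3 (2.25, adjusted p = 0.122). It was also lost in a fit of the 2 groups alone (adjusted p = 0.0865), without the filter (0.0572) and over the libraries without Y-linked transcripts (2.07, adjusted p = 0.0976).

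**Figure D5:**
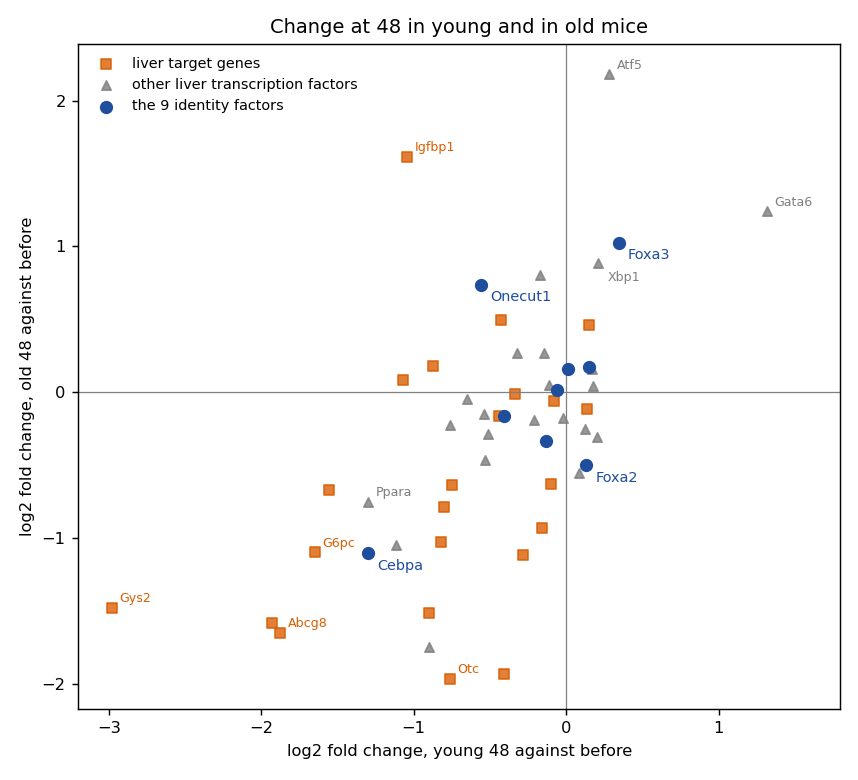
Log2 fold change at 48 against before in young (horizontal axis) and old mice (vertical axis) for the 9 identity factors (blue circles), 23 target genes (orange squares) and 22 other liver transcription factors (grey triangles), with selected names. Cebpa lies at -1.30 and -1.10 among the targets that were lower in both ages, and the other 8 factors lie between -0.56 and 0.34 in young.

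Of 22 other liver transcription factors, 1 was called higher and 5 lower at young 48, and 4 higher and 3 lower at old 48. Median log2 changes were -0.16 in both ages. Of all genes, 12.2% were called higher and 9.79% lower at young 48, and 12.1% and 12% at old 48. The counts of this list were not tested against these shares. Ppara, the receptor that drives fatty acid oxidation, fell at young 48, at 424 ± 112 CPM against 1044 ± 83.6 CPM (log2 change -1.30 ± 0.29, adjusted p = 0.00156). Gata6, a zinc finger factor, rose by 1.32 ± 0.30 (log2) at young 48 (adjusted p = 0.00181) and by 1.24 ± 0.29 at old 48 (adjusted p = 0.00287), the latter not without old 48 replicate 2 (0.51, adjusted p = 0.111) or in a fit of the 2 groups alone (1.26, adjusted p = 0.189). The young calls of Ppara and Gata6 held in all 47 alternatives. Esrra, an orphan nuclear receptor of energy metabolism, was lower at young 48 (log2 change -0.51 ± 0.17, adjusted p = 0.0280), but not without young before replicate 1 (-0.41, adjusted p = 0.144) or 2 (-0.50, adjusted p = 0.0693) or young 48 replicate 1 (-0.49, adjusted p = 0.0913) or 2 (-0.44, adjusted p = 0.104). Xbp1, a factor of the unfolded protein response, rose at old 48 by 0.88 ± 0.20 (adjusted p = 0.00235), and so did Atf5, a stress-responsive leucine zipper factor, by 2.18 ± 0.50 (adjusted p = 0.00270). In a fit of the 2 groups alone neither was called (adjusted p = 0.131 and 0.108), nor was Atf5 over the libraries without Y-linked transcripts (1.58, adjusted p = 0.0526). The counts at old 48 moved with single libraries: without old 48 replicate 2 they were 2 higher and 0 lower, without old before replicate 2 or 3 or old 48 replicate 3, 1 was lower, and without old 72 replicate 1, 5 were. At young 48, 3 were lower without young 48 replicate 2.

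Among family members and partners of the 9 factors, 11 of 14 listed genes were tested. At young 48, 1 was called higher, Foxm1, a forkhead factor of cell division, and 1 lower, Trib1, an adaptor that directs C/EBP proteins to degradation. Of all genes, 12.2% were called higher there and 9.79% lower, and the list was not tested against these shares. Foxm1 stood at 99.1 ± 43.3 CPM against 1.14 ± 0.893 CPM before in young. At 48 it was lower in old than in young, at 11.0 ± 11.8 CPM against 99.1 ± 43.3 CPM (log2 difference -3.16 ± 0.67, adjusted p = 0.00261), a call lost in a fit of the 2 groups alone (-3.13, adjusted p = 0.175). It was the list's only gene called in the interaction (adjusted p = 0.0191), a call lost without young 48 replicate 1 (adjusted p = 0.0575) or 3 (0.0642) or old 48 replicate 1 (0.0759) or 2 (0.0571). Trib1 fell at young 48, at 95.4 ± 7.99 CPM against 259 ± 24.9 CPM (log2 change -1.44 ± 0.27, adjusted p = 0.000272), in all 47 alternatives.

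At old 48, 2 of these 11 genes were called higher and 1 lower, where 12.1% of all genes were called higher and 12% lower. Trib1 fell (log2 change -0.79 ± 0.27, adjusted p = 0.0336), but not without old before replicate 1 (-0.80, adjusted p = 0.0513) or 3 (-0.61, adjusted p = 0.16), or old 48 replicate 2 (-0.57, adjusted p = 0.185) or 3 (-0.65, adjusted p = 0.114). Both genes called higher are dimer partners of C/EBP proteins. Cebpg rose by 0.75 ± 0.18 (log2; adjusted p = 0.00410), but not in a fit of the 2 groups alone (0.76, adjusted p = 0.112). Ddit3, induced by cell stress, stood at 51.0 ± 56.6 CPM against 8.26 ± 3.68 CPM (adjusted p = 0.00170), and its call was lost without old 48 replicate 1 (log2 change 1.20, adjusted p = 0.0608), in a fit of the 2 groups alone (2.62, adjusted p = 0.156) and over the libraries without Y-linked transcripts (1.04, adjusted p = 0.155).

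The genes whose log2 CPM followed a member most closely over the 36 libraries were found among 10283 candidates by Pearson's r. For Cebpa these were Hdac11 (r = 0.934, Spearman's rho = 0.817) and Ido2 (r = 0.917, rho = 0.765), closer than for any other member. For Cebpb the closest was Pim3 (r = 0.785, rho = 0.794), for Nr5a2 Man1a (r = 0.761, rho = 0.555) and for Onecut1 Cish (r = 0.752, rho = 0.653). For Foxa3 it was Pglyrp2 (r = 0.72), for Prox1 Tgm1 (r = 0.703), for Foxa2 Cwf19l1 (r = 0.668), for Hnf4a Ei24 (r = 0.652) and for Foxa1 Fbxo21 (r = 0.638). Each of these was the highest of 10283 candidates, with other members kept among them. They therefore cannot be compared with the values of the pairs of members. Over the 36 pairs of members r ran from -0.27 to 0.558, with a median of 0.036, and the highest was that of Cebpa and Nr5a2, which share their lowest library. The libraries share depth scaling and group means, so these values describe the series and were given no p.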

How the data were processed

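The 36 tables hold whole-number counts per gene symbol, 1 table per library, as the authors deposited them. Per the submitters' processing notes, the tools included Trimmomatic 0.39, STAR 2.7.5b and featureCounts, with build GRCm38. The gene annotation and the strand setting of the counting are not given in the sources used here. The labels' protocols describe total RNA libraries made with ribosomal depletion.

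Samples were grouped by the age and time labels. The members and gene lists were chosen with earlier results of these data known. Counts were filtered with filterByExpr on the 12 groups, scaled by TMM and fitted for all 13436 genes and 12 groups in edgeR 4.0.16 (R 4.3.3) with the robust quasi-likelihood test. P-values were two-sided and adjusted by Benjamini-Hochberg over all genes tested within each comparison, and 0.05 was the threshold. The common coefficient of biological variation was 24.7%. Standard errors were taken from the fold change and the F statistic. CPM used TMM-scaled totals, and Foxa1, Foxa2 and Onecut1 had the fewest counts per library.

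All 9 members were named. From the lists of other factors, partners and targets, genes were named where called, from the 3 with the smallest p over time in each age, and the 2 in the interaction and the age average. The 2 genes with the highest Pearson's r of log2(CPM + 1) with a member were taken among genes with a mean of at least 5 CPM. The sequences were those of RefSeq on GRCm38.p6, and gene positions came from GENCODE on the same build. The test was checked on simulated data. Alternatives changed the scaling, the filter, the test (DESeq2 1.42.0), the libraries fitted, a replicate block, and a term or subset for Y-linked transcripts, and left out each library in turn. A fit without the robust estimate and one without the libraries with acinar transcripts were added after seeing the data. Protein sequences were not used here.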

Additional observations from a re-analysis of the deposited data

How the results depend on the processing

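None of the members' log2 changes followed under the alternatives changed direction. Nr5a2 and Prox1 were not among those followed, and Hnf4a and Onecut1 were followed at old 72 only. The Onecut1 log2 change at young 48 was -0.56 in the main fit, but 0.27 between the means of the libraries without Y-linked transcripts. The number of the 9 members called moved at these settings. With total-count scaling it was 1 at old 72, and under that scaling the median log2 change of all genes was 0.211 in place of 0.014 at young 72, 0.127 in place of 0.015 at young 96 and 0.111 in place of -0.006 at old 72. Without the filter it was 0 over time in young. DESeq2 called 3 over time in old and 1 at old 72. Fitting the compared groups alone gave 0 over time in old and 0 at old 48. The libraries without Y-linked transcripts alone gave 0 over time in young, 0 over time in old, 0 at young 48 and 1 at old 72. The replicate numbers were not taken as pairs over the series: every same-numbered pair had a correlation of deviations over 0.1 in 6 of 16 comparisons (mean 0.102 between times and 0.062 between ages, lowest -0.378). The library with Y-linked transcripts was replicate 1 of both groups in all 6, so number and this split cannot be told apart there. It also had the same number in both groups for old 48 against before and between the ages at 72, which were not among the 6. In those 6, 0 members were called with or without the block, which called 13 in place of 21 of all genes at old 240 and 4 in place of 2 between the ages at 240. The replicate block gave 0 members over time in young, where Cebpa had an adjusted p of 0.0537, and called Foxa2 at old 48 (-0.49, adjusted p = 0.0434). Leaving out 1 library gave 0 to 2 over time in young, 0 to 2 over time in old, 0 to 1 at young 48, young 72, old 72 and old 120, and 0 to 3 at old 48. The level of Prox1 in young before was 371 CPM with total-count scaling and 399 CPM otherwise. The cause was not tested in any of these cases, and the fits that leave libraries out also hold fewer of them.

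The list counts at 48 moved too. At old 48, fitting the compared groups alone called 0 other factors higher and 0 lower, 0 partners higher and 0 lower, and 2 targets lower, but 12 targets lower at young 48 and 9 at young 72. DESeq2 called 5 other factors lower at old 48. Of all 13436 genes, fitting the compared groups alone called 221 in place of 3243 at old 48, 1021 in place of 1660 at old 72, 1 in place of 1505 between the ages at 48 and 946 in place of 2748 over time in old. The libraries without Y-linked transcripts called 1610 in place of 2949 at young 48 and 1810 in place of 2869 over time in young. DESeq2 called 733 in place of 371 in the interaction. Counts over all genes from 96 on and between the ages at other points were small and moved as well: at old 96, 917 became 410 in the fit of the compared groups alone and 483 without Y-linked libraries, at old 120, 520 became 202 and 957, at young 96, 188 became 594 and 55, and at young 120, 78 became 284 in the fit of the compared groups alone. The age average fell from 804 to 515 without Y-linked libraries. The lowest library held 82 counts for Foxa1, 89 for Onecut1 and 117 for Foxa2, and depth limits these members' values there.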
